A study of Homo sapiens with 6 samples.

Results

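The genes described here encode the subunits of the N-terminal acetyltransferases NatA to NatE. The 10 genes NAA10, NAA15, NAA16, NAA20, NAA25, NAA30, NAA35, NAA38, NAA40 and NAA50 were taken by symbol from a table of 50868 genes, and all 10 were found there and passed the filter on low counts. The family was selected on the values of NAA30, which was higher, with small spread, in the overexpression libraries than in the control libraries. The NAA30 values are therefore given as a description with no test. The other 9 genes entered as members of the family and were read from a fit over all 15055 genes tested. RNA was measured in Huh7 cells, a human hepatoma line, 48 h after transient transfection by lipofection. 3 libraries came from cells that received the plasmid for hsa_circ_0098181, a circular RNA of the SOX5 gene, and 3 from cells that received the control plasmid. No label says whether the replicates were separate cultures, so the tests measure only the spread between these libraries.

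N-terminal acetylation moves an acetyl group from acetyl-CoA to the first residue of a protein, mostly while the chain leaves the ribosome. Each enzyme reads the first residues of its substrates. NatA joins the catalytic subunit NAA10 to the ribosome-binding subunit NAA15, or to its paralog NAA16, and acts on small residues exposed when the starting methionine is removed. NatB (NAA20 with NAA25) acts on methionine followed by an acidic residue or its amide, and NatC (NAA30 with NAA35 and NAA38) on methionine followed by a large hydrophobic residue. NAA40 is NatD, which acetylates histones, and NAA50 is the catalytic subunit of NatE, which binds to the NatA complex.

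Library totals ran from 11130902 to 14138262 gene counts. SOX5, the host gene of the circle, was read in CPM (counts scaled to a common library size, with TMM factors). It lay at 1905, 2396 and 2012 CPM in overexpression replicates 1 to 3. In control replicates 1 to 3 it was at 41.8, 34.4 and 31.3 CPM, so the libraries matched their labels. These gene counts do not separate reads of the circle sequence on the plasmid from reads of the cells' own SOX5 transcripts. For the cell type markers, CPM were scaled by library totals alone, without TMM factors. All 11 hepatocyte and hepatoma markers checked were at 1 CPM or more in every library. The endothelial marker CDH5 had 0 counts throughout while PECAM1 was at 46.7 to 57.5 CPM, and the summed levels of the fibroblast, leukocyte and endothelial markers overlapped between the groups. Control replicate 1 held the largest share of mitochondrial counts, 9.29% against 6.32% to 7.04% in the other libraries.

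NAA30, the catalytic subunit of NatC (ENSG00000139977), was placed by the table on chromosome 14, from 57390544 to 57415917 (plus strand, GRCh38). Overexpression replicates 1 to 3 had 693, 601 and 585 counts of NAA30, and control replicates 1 to 3 had 339, 293 and 340. After scaling these were 49.1, 42.9 and 47.3 CPM against 31.3, 24.9 and 28.0 CPM. Every overexpression library lay above every control library, which is the pattern the family was chosen for. The overexpression mean of 46.4 ± 3.17 CPM (SD, n = 3) compared with a control mean of 28.1 ± 3.17 CPM (SD, n = 3), a 1.65-fold difference and a log2 fold change of 0.73. Because these values chose the family, no statistical support is claimed for the difference. Its within-group SD was 0.133 on the log2 CPM scale, and 41.6% of the 5053 genes with a mean CPM within 2-fold of its own had a smaller one. The log2 fold change ran from 0.647 to 0.811 when each library was left out in turn. Small spread was part of the choice, so the SD and this range are descriptions too.

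**Figure D1:**
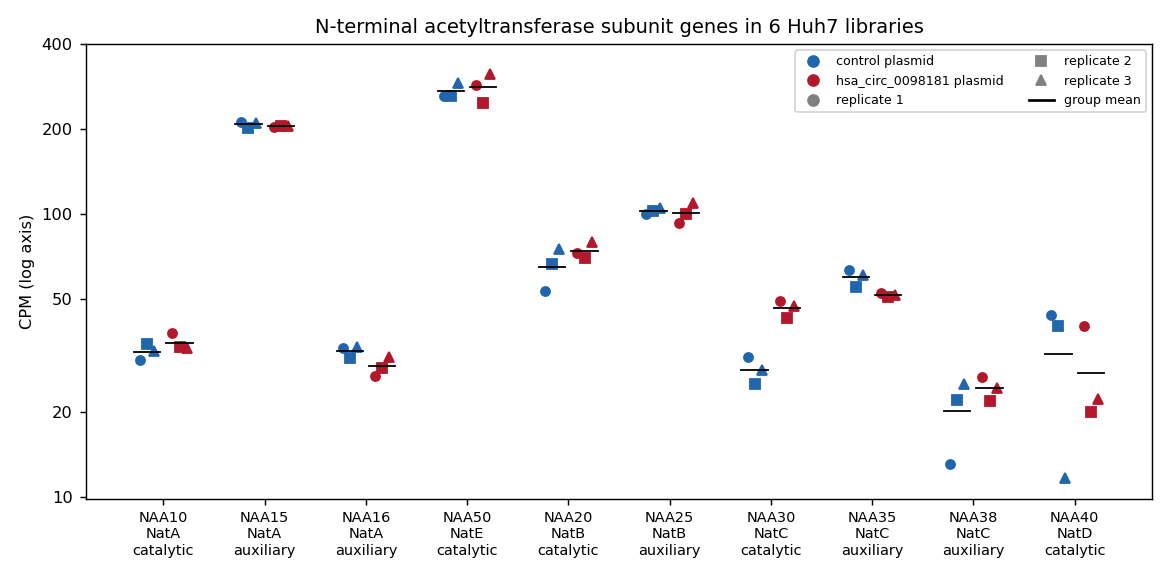
CPM (log axis) of the 10 subunit genes in the 3 control and 3 overexpression libraries, with 1 point per library and a line at each group mean. NAA30 and NAA35 are the genes whose groups do not overlap, NAA40 spreads from 11.6 to 44.1 CPM, and control replicate 1 lies low for NAA38 and NAA20.

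No annotated gene of the table overlapped NAA30. The nearest gene on its left, RP11-932A10.1, ended 31134 bases away and had 1 count over all libraries. The nearest on its right, C14orf105, started 53384 bases away and averaged 6.46 ± 0.421 CPM (SD, n = 3) in the overexpression and 8.25 ± 2.65 CPM (SD, n = 3) in the control libraries. Its log2 fold change was -0.35 (adjusted p 0.797 by edgeR), with overlapping groups. Of all 31-base stretches in NAA30 transcripts, 2.22% were also found in transcripts of other genes.

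NAA35 and NAA38 are the auxiliary subunits of NatC, and NAA35 anchors the complex to the ribosome. NAA35 (chromosome 9 at 85941146 to 86022298, plus strand) was at 52.6, 51.0 and 51.9 CPM in overexpression replicates 1 to 3 and at 63.6, 55.4 and 61.1 CPM in control replicates 1 to 3. All 3 overexpression values lay below all 3 control values. The log2 fold change was -0.21 with a 95% interval from -0.42 to 0.0024, and it did not pass the test over all genes (unadjusted p 0.052, adjusted p 0.797 by edgeR). NAA35 was the 1 gene of the other 9 whose groups did not overlap in that direction, and 0 of the 9 lay apart in the other. Among all genes tested, 6.5% were lower and 6.4% higher with groups apart.

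NAA38 (chromosome 17 at 7856685 to 7885238, minus strand) was at 26.6, 21.8 and 24.3 CPM with overexpression and at 13.01, 22.06 and 25.01 CPM with the control plasmid. Control replicate 1 was the low library, and the other 5 lay between 21.8 and 26.6 CPM. The log2 fold change was 0.27 with a 95% interval from -0.23 to 0.78 (adjusted p 0.816 by edgeR). Without control replicate 1 it was 0.0438. NAA38 overlaps CYB5D1, CHD3 and RP11-1099M24.6 on the opposite strand, and 32.1% of its 31-base stretches were shared with CYB5D1, so its counts are uncertain where strand was not used. With the counts of these genes added, the value was 0.0941. CHD3 alone had 889 to 1141 counts per library against 141 to 376 for NAA38. The summed value therefore mostly reflects CHD3 and is not a corrected value of NAA38.

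The NatC genes were then compared per length within each library, using the FPKM values as deposited. The ratio of NAA30 to NAA35 was 0.268, 0.241 and 0.262 in the overexpression libraries, against 0.141, 0.129 and 0.132 in the controls. Normalization of library size cancels in this ratio, and as it contains NAA30 it is a description. The size of the ratio depends on the gene lengths, and with merged exon lengths it averaged 0.426 in the overexpression and 0.222 in the control libraries. The ratio of NAA30 to NAA38 was 0.532, 0.568 and 0.561 against 0.693, 0.326 and 0.323, and here control replicate 1 lay above the overexpression libraries. The ratio of NAA35 to NAA38, which does not contain NAA30, was 2.16 ± 0.186 (SD, n = 3) and 3.29 ± 1.4 (SD, n = 3), with 4.91 in control replicate 1. With merged exon lengths its means were 1.15 and 1.75.

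**Figure D2:**
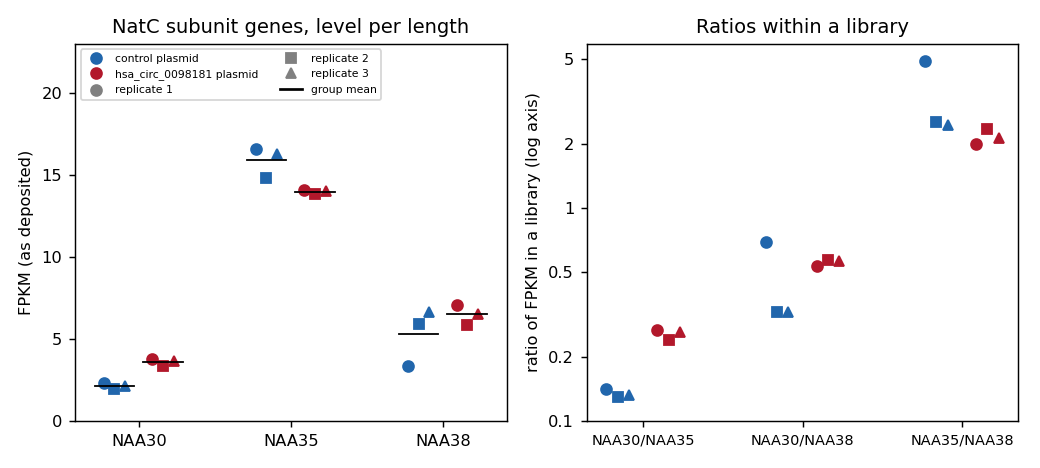
Left, deposited FPKM of the 3 NatC subunit genes in each library, with a line at each group mean. Right, ratios of these FPKM values within a library (log axis), where NAA30 to NAA35 ran from 0.129 to 0.141 in the control libraries and from 0.241 to 0.268 with overexpression, and control replicate 1 stands apart in both ratios with NAA38.

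NAA15, the ribosome-binding subunit of NatA (chromosome 4 at 139301455 to 139420033, plus strand), was at 203.8, 204.6 and 205.1 CPM with overexpression and at 212, 202.5 and 210.2 CPM with the control plasmid. Its groups overlapped, and 0.43% of the 1861 genes at a like level had a smaller within-group SD. The log2 fold change was -0.026 with a 95% interval from -0.20 to 0.15 (adjusted p 0.946 by edgeR). Its direction turned to 0.0107 with the counts of the overlapping genes NDUFC1 and RP11-83A24.2 added. NAA16 (chromosome 13 at 41311205 to 41377030, plus strand), the paralog of NAA15, was at 26.8, 28.6 and 31.3 CPM against 33.5, 30.8 and 33.9 CPM. The groups overlapped through overexpression replicate 3, and the log2 fold change of -0.18 had a 95% interval from -0.43 to 0.065 (adjusted p 0.797 by edgeR).

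NAA10, the catalytic subunit of NatA (chromosome X at 153929242 to 153935223, minus strand), was at 37.8, 33.8 and 33.5 CPM with overexpression and at 30.6, 34.6 and 32.7 CPM with the control plasmid. The groups overlapped, with a log2 fold change of 0.10 and a 95% interval from -0.14 to 0.35 (adjusted p 0.843 by edgeR). The value was 0.0454 without overexpression replicate 1 and 0.0614 without control replicate 1. NAA50 (chromosome 3 at 113716460 to 113746300, minus strand), the catalytic subunit of NatE, had the highest counts of the family, at 286.1, 246.3 and 313.2 CPM against 261.2, 262.3 and 292.2 CPM. Its overexpression libraries lay on both sides of the controls. Its log2 fold change was 0.052 with a 95% interval from -0.19 to 0.30 (adjusted p 0.925 by edgeR), and its direction turned to -0.0297 without overexpression replicate 3.

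NatB was measured by NAA20, its catalytic subunit (chromosome 20 at 20017116 to 20033655, plus strand), and NAA25, its auxiliary subunit (chromosome 12 at 112026689 to 112109022, minus strand). NAA20 was at 73.0, 69.9 and 79.5 CPM with overexpression and at 53.4, 66.5 and 75.2 CPM with the control plasmid. Control replicate 1 was again the lowest library. For NAA20 the log2 fold change was 0.19 with a 95% interval from -0.12 to 0.49 (adjusted p 0.797 by edgeR), and 0.0666 without control replicate 1. NAA25 was at 93.0, 100.1 and 109.2 CPM against 99.7, 102.6 and 104.8 CPM. All 3 control values lay inside the range of the overexpression values, and the log2 fold change of -0.023 had a 95% interval from -0.23 to 0.19 (adjusted p 0.967 by edgeR). It turned to 0.032 without overexpression replicate 1.

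NAA40, the histone acetyltransferase NatD (chromosome 11 at 63938959 to 63957328, plus strand), varied most within groups. It was at 40.28, 19.98 and 22.22 CPM in overexpression replicates 1 to 3 and at 44.11, 40.03 and 11.6 CPM in control replicates 1 to 3. 3 libraries lay between 40.03 and 44.11 CPM and the other 3 between 11.6 and 22.2 CPM, and both sets held libraries of both groups. The highest and lowest library differed 2.02-fold within the overexpression group and 3.80-fold within the control group. Of 5002 genes at a like level, 99.0% had a smaller within-group SD. The log2 fold change of -0.21 had a 95% interval from -1.25 to 0.83 (adjusted p 0.928 by edgeR), so its direction was not resolved with this spread. Without control replicate 3 it was -0.611, and leaving out control replicate 1 turned it to 0.0968.

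**Figure D3:**
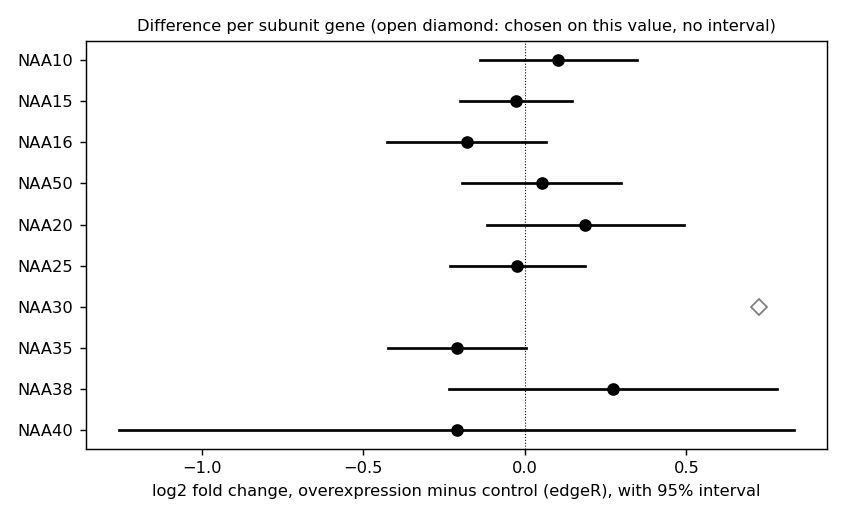
Log2 fold change (overexpression minus control, edgeR) of each subunit gene, with 95% intervals for the 9 genes other than NAA30 and an open diamond without interval for NAA30, at 0.73. The 9 intervals all include 0, and that of NAA40 is the widest, from -1.25 to 0.83.

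Over the 9 genes other than NAA30, 4 log2 fold changes were above 0 and 5 below, with a median of -0.023 against 0.0023 over all genes tested. By edgeR 0 of the 9 passed an adjusted p of 0.05 and 0 an unadjusted p of 0.05, and neither DESeq2 nor limma called any of them. Of all genes tested, 0.0399% passed the adjusted and 5.5% the unadjusted threshold.

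Control replicate 1 was low for NAA38 and NAA20, the members with the shortest merged exons (1943 and 2376 bases). It differed from the mean of the other control libraries by -0.828 for NAA38 and -0.401 for NAA20 on the log2 CPM scale. Over all genes with at least 5 CPM this difference had a median of -0.14 over the shortest of 4 equal classes by merged exon length (up to 3261 bases) and of 0.0961 over the longest (from 7617 bases). The low values of both members were further below 0 than the median of their class. NAA30, with 7653 bases, differed by 0.24 and so lay higher in control replicate 1 than in the other controls. The part of this length trend in the values of single members was not tested beyond a correction fitted to each library, under which NAA30 was 0.801, NAA38 0.191 and NAA20 0.146.

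**Figure D4:**
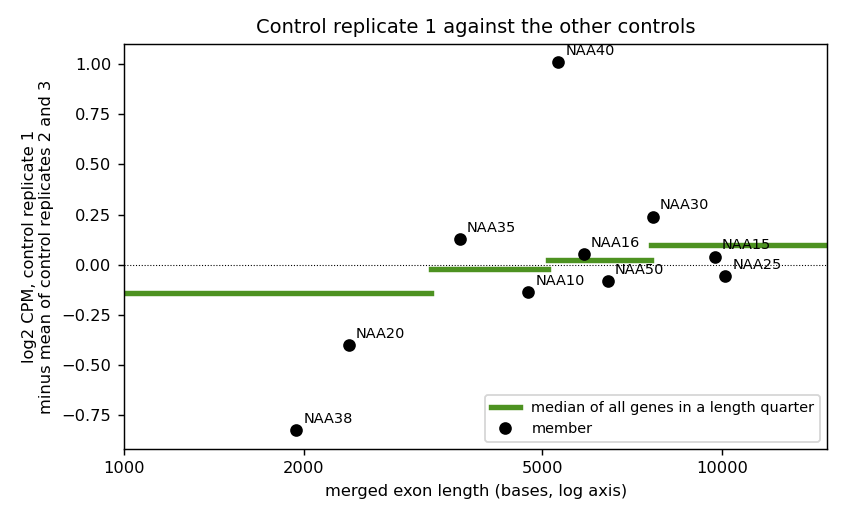
Log2 CPM of control replicate 1 minus the mean of control replicates 2 and 3 against merged exon length (log axis, in bases), with 1 point per subunit gene. Bars give the median of all genes in each of 4 length classes, from -0.14 in the shortest to 0.0961 in the longest. NAA38 and NAA20 lie below and NAA40 far above. For NAA40 control replicate 3 was the low control, at 11.6 CPM against 44.11 and 40.03 CPM in control replicates 1 and 2.

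Levels were compared between the genes per length. By deposited FPKM, averaged over the 6 libraries, the order was NAA20 (19.0), NAA50 (18.0), NAA35 (14.9), NAA15 (14.1), NAA25 (7.55), NAA38 (5.90), NAA10 (3.61), NAA16 (3.24), NAA30 (2.86) and NAA40 (2.54). The ranges of neighbours in this order overlapped, except that every NAA15 value lay above every NAA25 value. The length behind these FPKM values was longer than the merged exons, by 15343 against 6436 bases for NAA50. With merged exon lengths NAA50 came first at 132 TPM (counts per length, scaled to a common sum per library), followed by NAA20 at 89.7, NAA15 at 65.0 and NAA35 at 46.9 TPM, and NAA30 came last at 14.9 TPM. These means pool both groups. In the overexpression libraries NAA30 was 8 of 10 in the order on either scale (3.59 FPKM and 18.6 TPM), and in the control libraries it was 10 of 10 (2.13 FPKM and 11.1 TPM). It lay below both partners of its complex in every library on either scale.

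The 5 genes whose log2(CPM + 0.5) followed NAA30 most closely over the 6 libraries were AUNIP (Pearson r 0.993), LYRM1 (0.986), PAQR7 (0.982), SUMO3 (0.978) and LUC7L (0.9753), of 11497 genes with a symbol and at least 5 CPM. These are correlations over the same 6 libraries, and 57 genes exceeded 0.9. LYRM1 was at 28.0, 26.4 and 27.9 CPM with overexpression and at 20.1, 14.1 and 16.9 CPM with the control plasmid. SUMO3, a ubiquitin-like modifier, was at 133, 115 and 117 CPM against 69.4, 62.5 and 59.8 CPM. The log2 fold changes were 0.69 for LYRM1, 0.93 for SUMO3, 0.31 for AUNIP, 0.16 for PAQR7 and 0.13 for LUC7L. AUNIP and LYRM1 also ordered the 6 libraries exactly as NAA30 did, as did 8 of the 11497 genes in all. An order of 6 libraries can match without any link between genes, and the number expected so was not computed.

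Because the study concerns the microRNA miR-18a-3p, the 3′ UTRs of the subunit genes were searched for its seed match. Such a match is where an mRNA can pair with bases 2 to 8 of the microRNA, shown in capitals in its RefSeq sequence, and the matches in the 2 members that hold one follow with the matched heptamer in capitals.
hsa-miR-18a-3p: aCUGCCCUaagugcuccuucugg
NAA16 (chr13:41376624-41376630, plus strand): gggagcattatAGGGCAGaaaacaaatta
NAA50 (chr3:113721426-113721432, minus strand): tttcacattgaAGGGCAGagcctacaaaa

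The search used the sense strand of the longest coding transcript of each gene in GENCODE 29 (GRCh38). The heptamer AGGGCAG was not in the 6401 bases of the NAA30 3′ UTR. It was found in 16.5% of the 12357 tested genes with a 3′ UTR, and in 44.3% of the 395 whose 3′ UTR was within 1.2 times the length of that of NAA30. NAA16 and NAA50, with 1 match each, had log2 fold changes of -0.18 and 0.052. These are matches of letters and not known sites.

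Possible substrates can be grouped by the codon after the start codon, since the second residue is among those that each enzyme reads. The class names used here do not mean that only the named enzyme acts. Coding starts are shown for NAA30 and for 3 proteins known to be acetylated by NatC, the small GTPase ARFRP1 and the NEDD8-conjugating enzymes UBE2M and UBE2F. The second codon is in capitals.
NAA30: atgGCGgaggta
ARFRP1: atgTACacgctg
UBE2M: atgATCaagctg
UBE2F: atgCTAacgcta

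The NAA30 start encodes alanine after methionine, a residue of the NatA type, whereas the others encode leucine, tyrosine or isoleucine.

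Over all 12584 tested coding genes with such a start, 1281 encoded leucine, isoleucine, phenylalanine, tryptophan or tyrosine at the second position, the NatC type. Their median log2 fold change was 0.013, with 676 above 0 and 605 below, and 4.61% had an unadjusted p under 0.05 by edgeR. The median was 0.0026 for 6797 genes of the NatA type and -0.010 for 2513 genes of the NatB type, and 5.67% of all these genes had an unadjusted p under 0.05. The transcripts of possible NatC substrates therefore lay close to the median of all genes, which says nothing of their proteins.

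Genes around N-terminal acetylation were read from 5 further lists of 41 genes, of which 40 were tested. 19 log2 fold changes were above 0 and 21 below, 0 genes passed the adjusted threshold of edgeR and 2 had an unadjusted p under 0.05, against 5.5% of all genes tested. The groups did not overlap for 3 genes that were higher (NAT9, GNPNAT1 and SAT2) and 2 that were lower (UBR4 and UBR2), against 6.4% and 6.5% of all genes tested. GNPNAT1, SAT2 and UBR2 are named for this pattern, after their values were seen. UBR4 and NAT9 were the genes with an unadjusted p under 0.05, and DESeq2 and limma called neither. For HYPK, a partner of NatA, 60.1% of its 31-base stretches were also found in transcripts of other genes. How such reads were counted is not known. Among the other N-terminal acetyltransferases and HYPK, 2 of 4 genes were above 0 and 2 below. NAA11, a retrogene related to NAA10, was the highest, at 16, 17.1 and 19.1 CPM against 15.5, 15.7 and 16.9 CPM (log2 fold change 0.12, adjusted p 0.847 by edgeR). NAA80, the actin acetyltransferase, listed under its older symbol NAT6, was the lowest at -0.35 (SE 0.24, adjusted p 0.797 by edgeR). Without overexpression replicate 3 these values were 0.046 for NAA11 and -0.177 for NAA80.

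For methionine removal and myristoylation, the median of 6 genes was 0.0092, from METAP1D at -0.11 to PDF at 0.11. Without control replicate 1 PDF turned to -0.0671 and METAP1D was -0.0477. For acetyl-CoA supply the median of 3 tested genes was 0.040. The other acetyltransferases of the GNAT fold, the fold that the catalytic NAA subunits share, had 9 genes above 0 and 4 below, with a median of 0.093. NAT14 was the highest at 0.44 (SE 0.26) and ESCO1, a cohesin acetyltransferase, the lowest at -0.25 (SE 0.15). NAT14 was 0.219 without control replicate 1 and 0.691 without control replicate 2, and ESCO1 was -0.162 without control replicate 2 and -0.391 without control replicate 3. NAT9 was at 18.3, 20.5 and 21.7 CPM with overexpression and at 13.3, 17.1 and 16.9 CPM with the control plasmid. Its groups did not overlap, with a log2 fold change of 0.35 (SE 0.14, unadjusted p 0.034, adjusted p 0.797 by edgeR).

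N-degron pathways read free or acetylated protein ends, through ubiquitin ligases together with ubiquitin-conjugating enzymes and enzymes that modify the ends. Of 14 genes of these pathways and related ligases, 3 were above 0 and 11 below, with a median of -0.076. UBE2B, a ubiquitin-conjugating enzyme, was the highest at 0.18 (SE 0.16), and it ran from 0.0453 without overexpression replicate 3 to 0.302 without control replicate 1. UBR4, a ligase that acts on ends left free when NatC is lost, was the lowest, at 338, 472.1 and 477.3 CPM against 603.2, 495.6 and 530.8 CPM. Its groups did not overlap, with a log2 fold change of -0.34 (SE 0.15, unadjusted p 0.046, adjusted p 0.797 by edgeR). The value was -0.194 without overexpression replicate 1 and -0.164 with the length and GC correction.

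**Figure D5:**
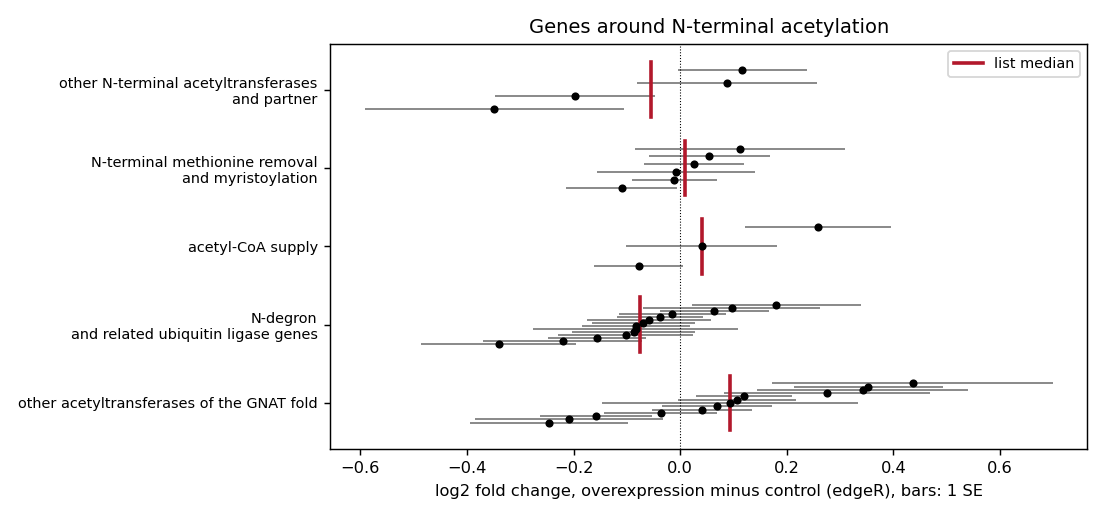
Log2 fold change (overexpression minus control, edgeR) with 1 SE of the 40 tested genes in 5 lists around N-terminal acetylation, with a bar at each list median. The medians lie between -0.076 for the N-degron genes and 0.093 for the other acetyltransferases of the GNAT fold, and no gene passed the adjusted threshold.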

How the data were processed

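The titles of the samples gave the group and the replicate number. The authors deposited whole-number read counts per gene, not normalized, and FPKM values (counts scaled by a gene length and by the counted reads of the library) for the 6 libraries. The submitters' processing notes name TopHat2 2.0.9 and hg38. The counting tool, the handling of strand and the annotation release are not given in the sources used here. Of the gene IDs 98.5% were in GENCODE 29, and 94.9% of those had the same coordinates. Gene symbols were matched by ID where older, since MARCHF6 is listed as a date.

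Counts were tested with edgeR 4.0.16 (R 4.3.3). Genes passed filterByExpr at a minimum count of 10, library sizes were scaled by TMM, and a two-sided quasi-likelihood test with no term but the group was adjusted over 15055 genes by Benjamini-Hochberg. The biological coefficient of variation was 16.1%. SEs were derived from the F statistic, and 95% intervals from the SE and the total degrees of freedom. The alternatives tried were DESeq2 1.42.0, upper-quartile and RLE normalization, 2 other filters, limma 3.58.1 on log2(FPKM + 1), a replicate block, leaving out each library, and counts summed with overlapping genes. A correction for merged exon length and GC content (splines with 5 degrees of freedom) and the grouping by second codon were chosen after the data were seen. The tests were tried on simulated data. All members, the lists, the 5 genes nearest to NAA30 and the highest, the lowest and any gene with an unadjusted p under 0.05 in lists of at least 4 tested genes were named. A list of single NatC substrates is not reported here. Members and lists were chosen with earlier results of these data known.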

Additional observations from a re-analysis of the deposited data

How the results depend on the processing

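NAA30 was 0.552 under limma on log2(FPKM + 1), a scale that lowers differences of weakly expressed genes, and between 0.647 and 0.811 in all other fits. The main edgeR fit called 4 genes higher and 2 lower, and DESeq2 called 8 higher and 19 lower. A replicate block called 2 higher and 2 lower. In that fit the NAA30 log2 fold change was 0.729, given as a description with no test. Leaving out 1 library gave 1 to 7 higher and 2 to 9 lower. Libraries with the same replicate number showed no shared deviation from their group means over the genes tested (correlations of deviations -0.0357, -0.0231 and -0.0308). This cannot tell whether they were prepared together. Of 135 values of the other 9 members, 129 kept their direction and their side of the threshold and 6 turned. NAA15 turned to 0.0107 with overlapping genes added, and with the length and GC correction NAA15 was 0.0716, NAA25 0.08 and the median of the 9 genes 0.0716. When 1 library was left out, NAA25 ran from -0.0834 to 0.032, NAA50 from -0.0297 to 0.139 and NAA40 from -0.611 to 0.0968. Of 124 values of 9 named list genes 2 turned, both of PDF, which ran from -0.0671 to 0.354 over the libraries left out and was -0.00836 with the correction. By Spearman correlation, 2 of the 5 genes nearest to NAA30 shared its exact order. For the values that turned, the cause was not tested. With 3 libraries a group, each 95% interval gives the differences compatible with the values of that gene, before adjustment over all genes. The smallest difference that could be detected was not computed.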
